A study of Bos taurus with 8 samples.

Results

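Kinesins, tubulins and centrosomal proteins were followed through the first cleavages of the bovine embryo. The gene table held 99 symbols that start with KIF or CEP and a number, or with TUBA, TUBB or TUBG, or that name DEUP1, PCNT, PLK4, STIL or SASS6. Of these, 87 had a mean of at least 1 CPM (read counts per 1000000 reads) over the 8 libraries, and they are the members described here, out of 12129 genes that passed the same filter. They fall into 10 alpha- and beta-tubulins, 5 genes of gamma-tubulin and its complex, 13 kinesins of cell division, 18 kinesins of transport and signalling, 17 centriole assembly genes, 15 genes of centriole appendages and the cilium base, and 9 genes of the pericentriolar material, the centrosome linker and other sites. The other 12 symbols (KIF6, KIF12, KIF21B, KIF25, KIF28, CEP170B, TUBA1D, TUBA3E, TUBA8, TUBB1, TUBB4A and TUBGCP6) lay below the filter and were not tested. KIF6 at a mean of 0.964 CPM and CEP170B at 0.655 CPM were just outside, and KIF1C at 1.05 CPM and TUBA4A at 1.32 CPM just inside.

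The embryos came from slaughterhouse oocytes matured and fertilised in vitro with Holstein semen. Zygotes for the edited groups received PEmax, a prime editor made of a Cas9 nickase and a reverse transcriptase, with a guide RNA by injection into the cytoplasm. The edit is named RPL12A148G, after RPL12, the gene of a large-subunit ribosomal protein. The sample titles say base editing and the protocol says prime editing. The labels do not say whether controls were injected, what share of alleles carried the edit or whether cumulus cells were removed. The 4 groups are control and edited embryos of 4 and of 8 cells, each with 2 libraries made from pools of 5 embryos. Samples titled as 4-cell embryos carry oocytes as their source name, and the titles were followed.

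Microtubules are polymers of alpha- and beta-tubulin dimers, and rings of gamma-tubulin with its partner proteins start new ones. Kinesins are motors that walk along microtubules, slide them or shorten their ends, and dividing cells need a set of them to build the spindle and to separate the daughter cells. The centrosome organises microtubules around a pair of centrioles. In cattle the sperm brings the centriole into the egg, and PLK4, STIL and SASS6 start each new centriole beside an old one. The first cleavages run largely on RNA and protein stored in the egg, and the main activation of the bovine embryonic genome falls around the 8-cell stage. Cells also tune tubulin mRNA to the amount of free tubulin, through decay of tubulin mRNA while it is being translated.

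The 8 libraries held between 33527531 and 35122409 reads assigned to genes, so that 3 reads corresponded to at most 0.0899 CPM. All 14 oocyte and early embryo markers checked (among them GDF9, BMP15 and ZP3) had at least 1 CPM in every library. Their sum also moved with the groups, at 19929 and 26272 CPM in 4-cell controls and 49407 and 57931 CPM in 4-cell edited libraries. It was 50233.5 and 37697 CPM in 8-cell controls and 52973 and 56154 CPM in 8-cell edited libraries. BTG4 alone made up 12015.5 and 14925 CPM of it in 4-cell controls and 28841 and 37563 CPM in 4-cell edited libraries. Of the 14 markers, 6 (42.9%) were called higher and 1 (7.14%), H1-8, lower in 4-cell edited embryos, against 18.9% and 25.8% of all genes tested. At the 8-cell stage 3 (21.4%) were higher and 0 lower, against 1.08% and 14.5% of all genes. RPL12 itself stood at 159 and 174 CPM in 4-cell controls against 27.5 and 33.6 CPM in 4-cell edited libraries, and at 96.3 and 97.6 CPM in 8-cell controls against 14.1 and 11.9 CPM in 8-cell edited libraries. Markers of cumulus and granulosa cells, the somatic cells around the egg, moved with the editing groups. Their summed level over 27 genes was 4695 and 7477 CPM in 4-cell controls, 1762 and 2428 CPM in 4-cell edited, 3733 and 3454 CPM in 8-cell controls and 630.0 and 1219 CPM in 8-cell edited libraries. Much of this sum was LUM, with 2878 and 5965 CPM in 4-cell controls and 1282 and 1897 CPM in 4-cell edited libraries. LUM had 3052 and 2449 CPM in 8-cell controls and 120 and 749 CPM in 8-cell edited libraries. Of the 24 such markers tested, 19 (79.2%) were lower and 1 (4.17%) was higher in edited embryos at the 4-cell stage, against 25.8% and 18.9% of all genes. At the 8-cell stage 10 (41.7%) were lower, against 14.5% of all genes. The marker called higher was HAS2, with 24.3 and 55.4 CPM in 4-cell controls and 132 and 124 CPM in 4-cell edited libraries. Among 8-cell embryos 4 of the 24 had a positive change, and 0 were called higher. STAR had 154 and 143 CPM in 8-cell controls and 174 and 213 CPM in 8-cell edited libraries. AREG was at 0 in 6 libraries, LHCGR in 5 and FOXL2 in 4. CYP19A1, the aromatase of granulosa cells, lay between 0.898 and 2.25 CPM in all 8. The part of either marker list in the results below was not tested beyond a fit with the mean level of the cumulus and granulosa list as a covariate, which called 0 members in the editing comparison at either stage. That list itself moved with the editing groups, so the fit cannot separate its level from editing. In pooled embryos, fewer cells of a type and less RNA per cell cannot be told apart.

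At the 4-cell stage the members split by function. In edited embryos 6 of 10 alpha- and beta-tubulins were lower, and most centrosomal transcripts and division kinesins were higher. Of the 87 members, 39 were higher and 10 lower in edited embryos at an adjusted p under 0.05 (limma on log2(CPM + 1), Benjamini-Hochberg over all 12129 genes). Of all genes tested, 44.7% passed, with 18.9% higher and 25.8% lower, so the members' share of 44.8% higher lay above the background and that of 11.5% lower lay below it. Their median log2 fold change was 0.63, against -0.02 over all genes. In 55 members both edited libraries lay above both controls and in 15 below them, against 33.5% and 37.5% of all genes. By class, 27 of 41 centrosomal genes, counted without gamma-tubulin and its complex, were higher and 0 lower, and 12 of 31 kinesins were higher and 2 lower. Of 10 alpha- and beta-tubulins 0 were higher and 6 lower, and of 5 genes of gamma-tubulin and its complex 0 were higher and 2 lower. All values with ± below are means and SDs of 2 libraries, and fold changes are on the log2(CPM + 1) scale, which understates the change of weakly expressed genes. P-values measure the spread between libraries only, since the labels do not say that pools within a group came from separate fertilisations.

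**Figure D1:**
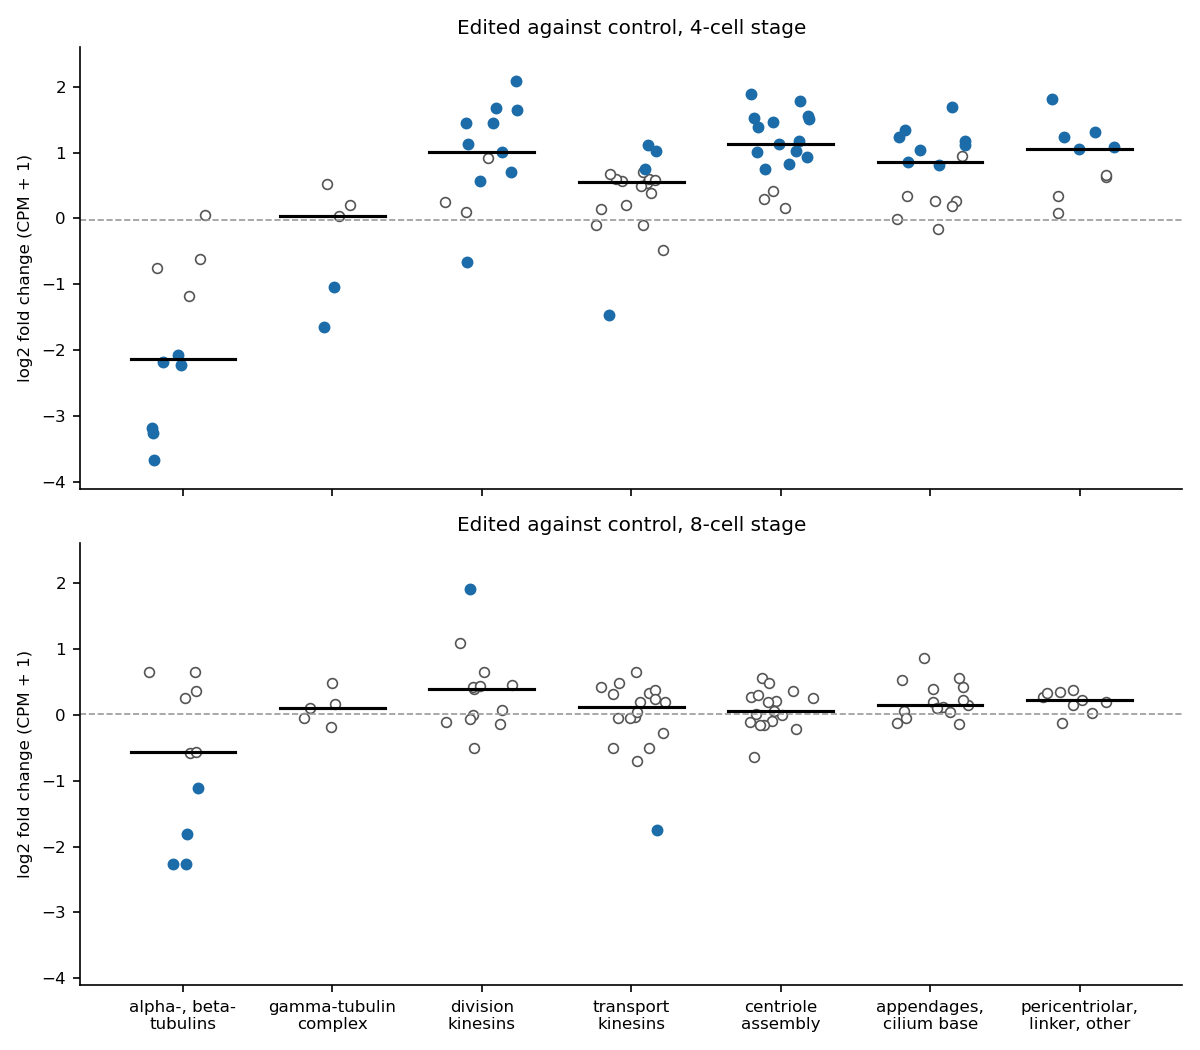
Log2 fold change (CPM + 1) between edited and control embryos for the 87 members by functional class, at the 4-cell stage (top) and the 8-cell stage (bottom). Each point is a gene, filled where the adjusted p was under 0.05, the bar is the class median and the dashed line the median of all 12129 genes. At the 4-cell stage the tubulins have a median of -2.13 and the centriole assembly genes one of 1.13.

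Among the beta-tubulins, TUBB6 stood at 206 and 196 CPM in 4-cell control libraries and at 13.5 and 16.3 CPM in edited ones. The groups did not overlap, and the mean was 13.5 times higher in controls (log2 fold change -3.67, SE 0.30, adjusted p 6.77e-07). TUBB, the main beta-tubulin of most dividing cells, stood at 253 and 307 CPM in controls and at 24.6 and 32.7 CPM in edited libraries (log2 fold change -3.25, SE 0.30, adjusted p 1.33e-06). TUBB2A went from 121 ± 23.5 CPM in controls to 28.4 ± 9.38 CPM in edited embryos (log2 fold change -2.07, adjusted p 5.96e-05). TUBB2B, a near-identical copy of TUBB2A, was at 12.7 and 5.34 CPM against 1.04 and 0.965 CPM (log2 fold change -2.22, adjusted p 0.000696). TUBB3, best known from neurons, had the same direction but did not pass (31.5 ± 0.554 against 53.4 ± 0.508 CPM, adjusted p 0.0520). TUBB4B lay at 3.48 to 7.55 CPM in edited and at 8.03 to 8.98 CPM in control libraries and did not pass (adjusted p 0.285). Summed over the 6 beta-tubulin members, the level was 671 and 674 CPM in 4-cell controls and 114 and 106 CPM in edited libraries, a sum that was not tested.

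The alpha-tubulins divided among themselves. TUBA1A stood at 842 and 1223 CPM in 4-cell controls and at 80.5 and 154 CPM in edited libraries, an 8.79-fold difference of the means (log2 fold change -3.17, SE 0.29, adjusted p 1.27e-06). TUBA1B stood at 891 and 1779 CPM against 252 and 303 CPM (log2 fold change -2.18, SE 0.29, adjusted p 2.83e-05). TUBA1C, which encodes nearly the same protein, was at 608 and 905 CPM in controls and at 903 and 655 CPM in edited libraries, and these overlapped (log2 fold change 0.05, SE 0.24, adjusted p 0.879). TUBA4A was scarce, at 0.579 and 4.19 CPM against 0.289 and 0.234 CPM (adjusted p 0.0610). TUBA1C thus took 26.0% and 23.1% of the reads on the 4 alpha-tubulin members in 4-cell controls and 73.0% and 58.9% in 4-cell edited libraries. Where reads match several of these near-identical genes, the authors' counting could split or drop them, so the division among TUBA1A, TUBA1B and TUBA1C, and between TUBB2A and TUBB2B, is uncertain.

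In 8-cell embryos 4 of the 10 alpha- and beta-tubulins (40%) were lower with editing, against 14.5% of all genes. All 4 were among the 6 called lower at the 4-cell stage. TUBA1A stood at 365 and 525 CPM in 8-cell controls and at 81.8 and 99.0 CPM in edited libraries (log2 fold change -2.27, SE 0.29, adjusted p 5.28e-05). TUBB was at 87.8 and 135 CPM against 16.2 and 29.7 CPM (log2 fold change -2.26, adjusted p 7.29e-05), and TUBB6 at 48.5 and 93.6 CPM against 18.4 and 18.5 CPM (log2 fold change -1.82, adjusted p 0.000365). TUBA1B was at 561 and 809.8 CPM against 361 and 266 CPM (log2 fold change -1.12, adjusted p 0.0139). The fall of TUBA1A, TUBB and TUBB6 at both stages was called in each of the 13 alternative fits of its comparison other than the covariate fit. The call of TUBA1B at the 8-cell stage was lost without the second 8-cell control library (log2 fold change -0.85) and without the second 8-cell edited library (log2 fold change -0.90), with edgeR (adjusted p 0.0516) and with no filter on low values (adjusted p 0.0951). TUBB2A (34.4 ± 0.160 against 53.7 ± 18.9 CPM) and TUBB2B (1.47 ± 0.463 against 2.69 ± 1.09 CPM) did not pass at this stage. TUBA1C was at 1510.0 and 1274 CPM in edited against 877 and 896 CPM in control libraries, without overlap but above the threshold (log2 fold change 0.65, SE 0.24, adjusted p 0.0830). TUBB3, at 61.5 and 56.7 against 26.5 and 52.7 CPM, did not pass either (adjusted p 0.174), and TUBA4A and TUBB4B had adjusted p of 0.689 and 0.765. TUBA1C took 48.6% and 40.1% of the alpha-tubulin reads in 8-cell controls and 77.2% and 77.7% in 8-cell edited libraries.

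**Figure D2:**
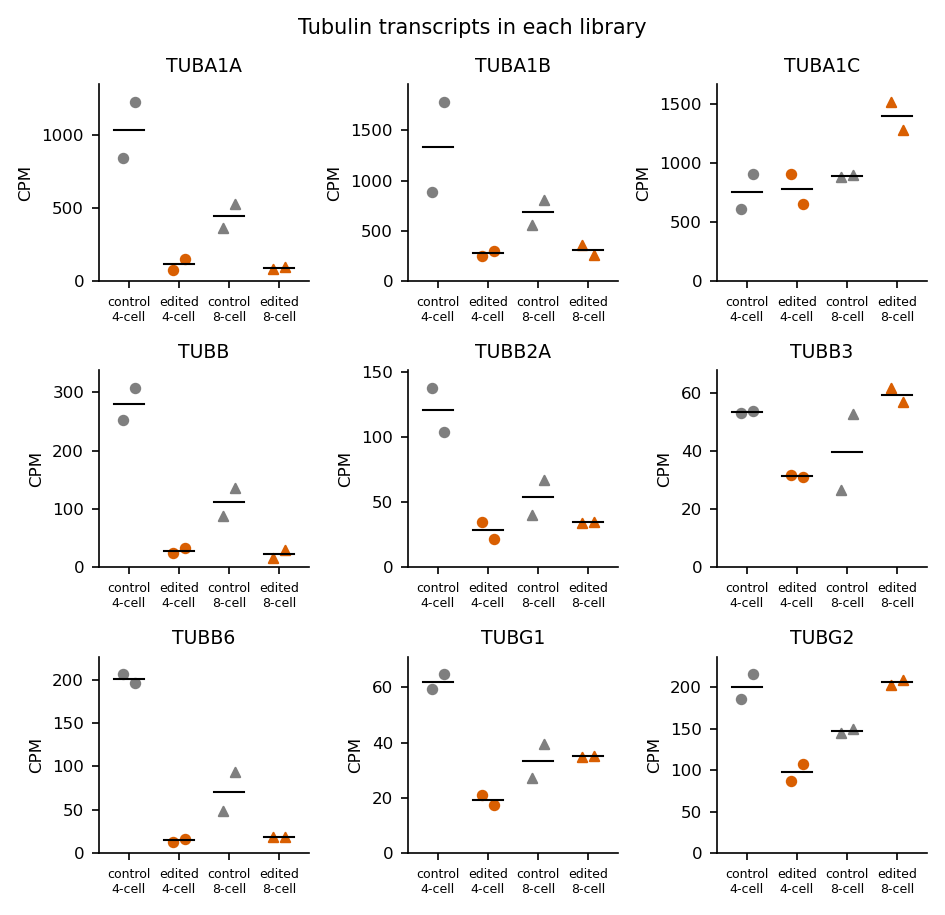
CPM of 9 alpha-, beta- and gamma-tubulin genes in each of the 8 libraries (grey control, orange edited; circles 4-cell, triangles 8-cell; the bar is the mean of 2 libraries; each axis starts at 0). TUBA1A, TUBB and TUBB6 are low in all 4 edited libraries, whereas TUBA1C is highest in the 8-cell edited libraries at 1510.0 and 1274 CPM.

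**Figure D3:**
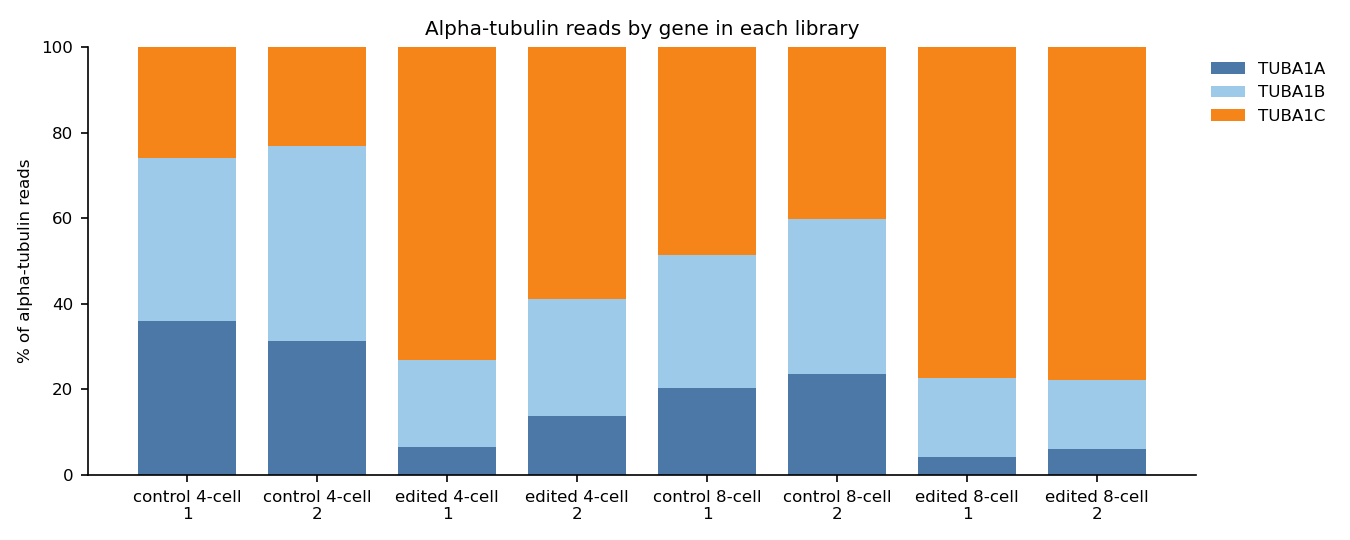
Share in percent of the reads on the 4 alpha-tubulin members that fell on TUBA1A, TUBA1B and TUBA1C, by library (the remainder to 100% is TUBA4A). The TUBA1C share runs from 23.1% and 26.0% in 4-cell controls to 77.2% and 77.7% in 8-cell edited libraries.

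Gamma-tubulin, which nucleates microtubules, is encoded by TUBG1 and TUBG2, and both were lower in edited embryos at the 4-cell stage. TUBG1 stood at 59.4 and 64.6 CPM in controls and at 20.9 and 17.6 CPM in edited libraries (log2 fold change -1.64, SE 0.27, adjusted p 0.000185). TUBG2 stood at 186 and 216 CPM against 87.7 and 107 CPM (log2 fold change -1.04, SE 0.21, adjusted p 0.00107). Among 8-cell embryos neither gene passed. TUBG1 was then at 34.9 and 35.1 CPM in edited against 27.1 and 39.3 CPM in control libraries (adjusted p 0.855), and TUBG2 at 203 and 209 against 145 and 150.3 CPM (adjusted p 0.162). The gamma-tubulin complex proteins, which hold gamma-tubulin in its ring, passed in neither comparison. At the 4-cell stage TUBGCP3 had a log2 fold change of 0.52 (adjusted p 0.192), TUBGCP4 one of 0.03 (adjusted p 0.946) and TUBGCP5 one of 0.21 (adjusted p 0.576), and at the 8-cell stage their adjusted p lay between 0.770 and 0.939. TUBG1 and TUBG2 are close copies as well, and reads shared by them are uncertain.

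Kinesins of cell division rose in edited embryos at the 4-cell stage: 9 of 13 (69.2%) were called higher and 1 (7.69%) lower, against 18.9% and 25.8% of all genes. KIF11, the motor that pushes the spindle poles apart, stood at 12.5 and 25.4 CPM in controls and at 60.7 and 103 CPM in edited libraries (log2 fold change 2.09, SE 0.37, adjusted p 0.000334). KIF18A, which dampens chromosome movements at the metaphase plate, was at 256 and 438 CPM against 885 and 1308 CPM (log2 fold change 1.68, SE 0.26, adjusted p 0.000109). For both genes each edited library lay above each control library. KIF20B, a motor of cytokinesis, was at 300.1 and 423 CPM against 927 and 1356 CPM (log2 fold change 1.65, adjusted p 0.000185). KIF15, which can stand in for KIF11, KIF23, a part of the centralspindlin complex of the dividing cell's midzone, KIF4A, KIF18B and the microtubule depolymerases KIF2A and KIF2C made up the rest, with log2 fold changes from 0.56 for KIF2C to 1.45 for KIF18B. KIF22, a motor on chromosome arms, was the member called lower, at 62.0 and 60.1 CPM in controls against 42.8 and 34.4 CPM in edited libraries (log2 fold change -0.65, adjusted p 0.0391). This call was kept in 6 of 13 alternatives other than the covariate fit, and it was lost without either 4-cell control library and without the second edited one, with log2 fold changes from -0.81 to -0.50 over the alternatives. KIF14 (22.2 ± 2.74 CPM in controls, 23.8 ± 4.73 CPM in edited), KIF20A (49.7 ± 12.3 and 59.2 ± 14.1 CPM) and KIF2B did not pass.

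The division kinesin called in 8-cell embryos was KIF2B, a relative of KIF2A. It stood at 3.71 and 3.74 CPM in edited and at 0.286 and 0.236 CPM in control libraries (log2 fold change 1.91, SE 0.41, adjusted p 0.00360), so that the control values rest on few reads. edgeR on the recovered reads did not call it. KIF2B passed the filter of 1 CPM only through its edited libraries. Its control means were 0.440 CPM in 4-cell and 0.261 CPM in 8-cell embryos. The same held for KIF18B, called higher at the 4-cell stage, with control means of 0.803 and 0.640 CPM. For both genes the filter and the call thus rest on the same values. KIF18A was at 951 and 1005 CPM in edited against 689 and 562 CPM in control libraries without passing (log2 fold change 0.65, adjusted p 0.118), and KIF11 was at 25.1 and 39.4 CPM against 38.5 and 23.4 CPM (log2 fold change 0.06).

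Of the 18 kinesins of transport and signalling, 3 (16.7%) were higher and 1 was lower in 4-cell edited embryos, and the share higher was near the 18.9% of all genes. KIF3A, a kinesin-2 motor that carries cargo into cilia, stood at 268 and 337 CPM in controls and at 575 and 746 CPM in edited libraries (log2 fold change 1.12, SE 0.24, adjusted p 0.00142). Its partner KIF3C was at 25.9 and 29.9 CPM against 71.9 and 45.8 CPM (log2 fold change 1.02, adjusted p 0.00579), and this call was lost without the first 4-cell edited library (log2 fold change 0.70). KIF5B, the ubiquitous conventional kinesin, was at 61.7 and 103 CPM against 134 and 136 CPM (log2 fold change 0.75, adjusted p 0.0259), a call that 9 of 13 alternatives other than the covariate fit kept and that was lost without the first 4-cell control library (log2 fold change 0.39) and without either edited one (0.76 and 0.74). KIF21A, a kinesin that restrains microtubule growth, was lower at both stages. In 4-cell embryos it had a mean of 14.7 ± 3.28 CPM in controls and values of 2.66 and 7.60 CPM in edited libraries (log2 fold change -1.47, adjusted p 0.0204). In 8-cell embryos it had 10.5 and 11.2 CPM against 4.66 and 1.20 CPM (log2 fold change -1.75, adjusted p 0.0185). The first KIF21A call was lost without the second 4-cell control library (log2 fold change -1.25) and without the first 4-cell edited one (-0.85). The second was lost without the second 8-cell control library (-1.70) and without the second 8-cell edited one (-1.06). edgeR (adjusted p 0.110 and 0.0844) and limma on all genes, unfiltered (adjusted p 0.0844 and 0.107), called KIF21A at neither stage. The other 14 members of the class had 4-cell log2 fold changes between -0.47 for KIF1C and 0.70 for KIF5A and did not pass.

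Of 17 centriole assembly genes, 14 (82.4%) were higher and 0 lower in 4-cell edited embryos, against 18.9% and 25.8% of all genes. PLK4, the kinase that sets centriole number, stood at 12.6 and 18.8 CPM in controls and at 29.7 and 34.5 CPM in edited libraries (log2 fold change 1.01, SE 0.30, adjusted p 0.0115). The PLK4 call was lost without the first 4-cell control library (log2 fold change 0.74) and without the second 4-cell edited library (log2 fold change 0.90). STIL, which PLK4 phosphorylates, was at 11.4 and 21.8 CPM against 55.9 and 57.6 CPM (log2 fold change 1.78, SE 0.33, adjusted p 0.000426). SASS6, the protein of the cartwheel at the base of a new centriole, was at 58.8 and 90.7 CPM against 140.1 and 198 CPM (log2 fold change 1.18, adjusted p 0.00237). Edited libraries lay above control libraries for all 3 genes. CEP152 and CEP192, the scaffolds that bring PLK4 to the old centriole, had log2 fold changes of 0.93 and 1.46 (adjusted p 0.00272 and 0.000406). CEP135, another cartwheel protein, was at 17.9 and 33.8 CPM against 93.0 and 94.5 CPM (log2 fold change 1.89, SE 0.31, adjusted p 0.000162). CEP57L1, which holds mother and daughter centrioles together, had the smallest p of the class, at 127 and 122 CPM against 375 and 356 CPM (log2 fold change 1.55, SE 0.20, adjusted p 2.20e-05). CEP350, a centriole protein that anchors microtubules, was at 53.8 and 79.7 CPM against 203 and 178 CPM (log2 fold change 1.52, SE 0.24, adjusted p 0.000119).

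DEUP1 is a paralogue of CEP63 and is known for making the deuterosomes from which multiciliated cells grow many centrioles. It stood at 11.3 and 8.06 CPM in 4-cell controls and at 34.2 and 20.4 CPM in 4-cell edited libraries (log2 fold change 1.38, SE 0.32, adjusted p 0.00264). CEP63 itself, which recruits CEP152, did not pass (104 ± 13.1 against 129 ± 25.8 CPM, adjusted p 0.329), and neither did CEP76 or CEP85. The rest of the called genes were CEP44, CEP57, CEP97, CEP120 and CEP295, with log2 fold changes of 0.75 or more. In 8-cell embryos 0 of the 17 genes passed. PLK4 was then at 21.6 and 22.7 CPM in edited against 27.0 and 22.5 CPM in control libraries, STIL at 20.1 and 32.5 against 30.0 and 27.7 CPM, SASS6 at 158 and 137 against 127 and 87.2 CPM and DEUP1 at 25.5 and 23.0 against 33.2 and 44.3 CPM. Their adjusted p lay between 0.220 for DEUP1 and 0.789 for STIL.

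**Figure D4:**
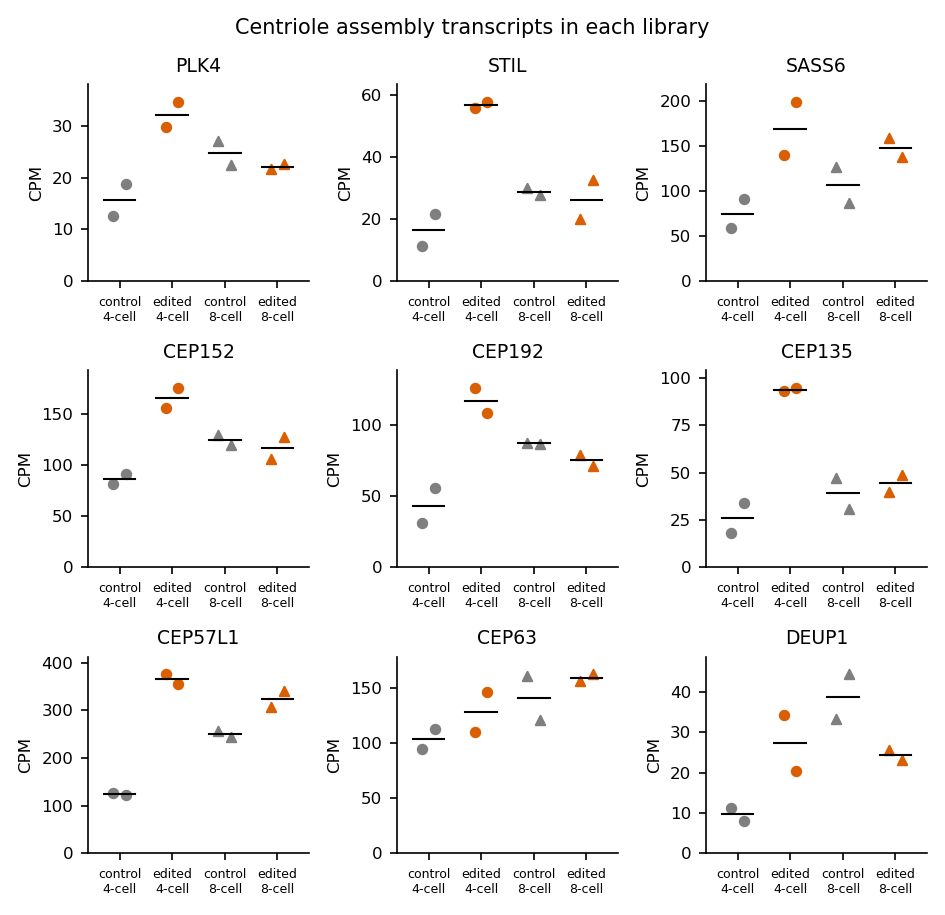
CPM of 9 centriole assembly genes in each of the 8 libraries (grey control, orange edited; circles 4-cell, triangles 8-cell; the bar is the mean of 2 libraries; each axis starts at 0). STIL is at 55.9 and 57.6 CPM in 4-cell edited libraries and at or below 32.5 CPM in the other 6, while DEUP1 has its highest group mean, 38.8 CPM, in the 8-cell controls.

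Of the 15 genes of the appendages and the cilium base, 8 (53.3%) were higher in 4-cell edited embryos and 0 lower, against 18.9% and 25.8% of all genes. CEP290, a gatekeeper of the cilium's transition zone, stood at 37.7 and 58.2 CPM in controls and at 133 and 178 CPM in edited libraries (log2 fold change 1.69, SE 0.27, adjusted p 0.000137). CEP83, which anchors the distal appendages, was at 43.5 and 48.4 CPM against 109 and 109.6 CPM (log2 fold change 1.23, adjusted p 0.000433). CEP162, also of the transition zone, was at 23.5 and 32.8 CPM against 69.2 and 74.9 CPM (log2 fold change 1.34, adjusted p 0.000878). CEP20, CEP78, CEP128, CEP164 and CEP170 were the other genes called, with log2 fold changes from 0.80 to 1.17. The other genes of the class did not pass, among them CEP19 with a log2 fold change of -0.16 and CEP126 with one of 0.95. At the 8-cell stage none of the 15 passed, with log2 fold changes from -0.15 to 0.85.

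In the last class, 5 of 9 genes (55.6%) were higher at the 4-cell stage and 0 lower, against 18.9% and 25.8% of all genes. CEP55, which brings the abscission machinery to the midbody between daughter cells, had a mean of 22.8 ± 3.10 CPM in controls and stood at 64.8 and 104 CPM in edited libraries (log2 fold change 1.81, SE 0.30, adjusted p 0.000158). CEP95 was at 38.5 and 53.9 CPM against 118 and 111 CPM (log2 fold change 1.31, adjusted p 0.000432), and CEP70 at 173 and 192 against 319.7 and 449.6 CPM (log2 fold change 1.05, adjusted p 0.00124). CEP68, a linker protein, and CEP85L passed as well. PCNT, the large scaffold of the pericentriolar material, was weak in every library, at 4.32 and 3.17 CPM in 4-cell controls, 6.19 and 3.98 CPM in 4-cell edited, 3.46 and 8.43 CPM in 8-cell controls and 6.16 and 3.89 CPM in 8-cell edited libraries. Its groups overlapped at both stages (adjusted p 0.542 and 0.876). CEP72, CEP112 and CEP250 did not pass either. No gene of this class passed at the 8-cell stage.

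Over the whole set, 1 member was higher (KIF2B) and 5 were lower in edited embryos at the 8-cell stage (TUBA1A, TUBA1B, TUBB, TUBB6 and KIF21A). The background was 15.6% of all genes, 1.08% higher and 14.5% lower, against 1.15% and 5.75% of the members. The 1.15% is KIF2B alone, which passed the filter only through its edited libraries. The members' median log2 fold change was 0.15, against 0.00 over all genes. In 31 members both edited libraries lay above both controls and in 16 below them, against 27.7% and 32.7% of all genes. Without the second 8-cell control library 2 were called higher and 3 lower, and without the second 8-cell edited library 3 were called lower. In limma's fit with the mean level of the cumulus and granulosa markers as a covariate, 0 of 87 members passed at either stage, with 5 and 1 at an unadjusted p under 0.05. These markers themselves moved with the editing groups, so the fit cannot separate their level from editing. That fit called 0 of all 12129 genes at both stages, with 933 and 583 at an unadjusted p under 0.05. Its 4-cell log2 fold changes were 1.81 for CEP55, 1.83 for KIF18A, 1.53 for CEP290 and 1.47 for STIL, but 0.40 for KIF3A and 1.03 for CEP135. Those of the called alpha- and beta-tubulins were nearer 0 than without the covariate, at -1.96 for TUBB6 and -0.50 for TUBA1B in 4-cell embryos and -0.38 for TUBB6 in 8-cell ones. edgeR called 39 members higher and 9 lower at the 4-cell stage and 0 higher and 3 lower at the 8-cell stage, and DESeq2 39 and 11, then 2 and 5, all without the covariate.

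The effect of editing was then compared between the stages by a test of the difference itself. It differed for 16 of 87 members, 18.4% of them, against 3.96% of all genes tested (1.95% with a positive and 2.00% with a negative difference). In 13 the change was more negative at the 8-cell stage, and all 13 were kinesins or centrosomal genes with a positive change at the 4-cell stage: CEP83, CEP135, CEP192, CEP290, CEP295, CEP350, CEP57L1, DEUP1, STIL, KIF5B, KIF11, KIF15 and KIF20B. STIL had log2 fold changes of 1.78 in 4-cell and -0.16 in 8-cell embryos (difference -1.95, SE 0.46, adjusted p 0.0352), and DEUP1 from 1.38 to -0.64 (difference -2.02, SE 0.46, adjusted p 0.0324). In the other 3, TUBB6, TUBG1 and TUBG2, the change was more positive at the 8-cell stage. TUBG2 had the smallest p, with log2 fold changes of -1.04 and 0.48 (difference 1.52, SE 0.30, adjusted p 0.0230). These calls depended on the libraries in the fit. CEP83 and DEUP1 were lost without the second 8-cell control library (differences -1.29 and -1.82), so an equal count below does not mean the same genes. The count was 29 without the second 4-cell control library, 3 without the first, 16 without the second 8-cell control library, and 0 without the first 8-cell control library or any of the 4 edited libraries. edgeR called 0 of the 16, with 38 members at an unadjusted p under 0.05, and DESeq2 called 21 of the 83 it gave an adjusted p. With no filter on low values limma called 0, with 33 members at an unadjusted p under 0.05.

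**Figure D5:**
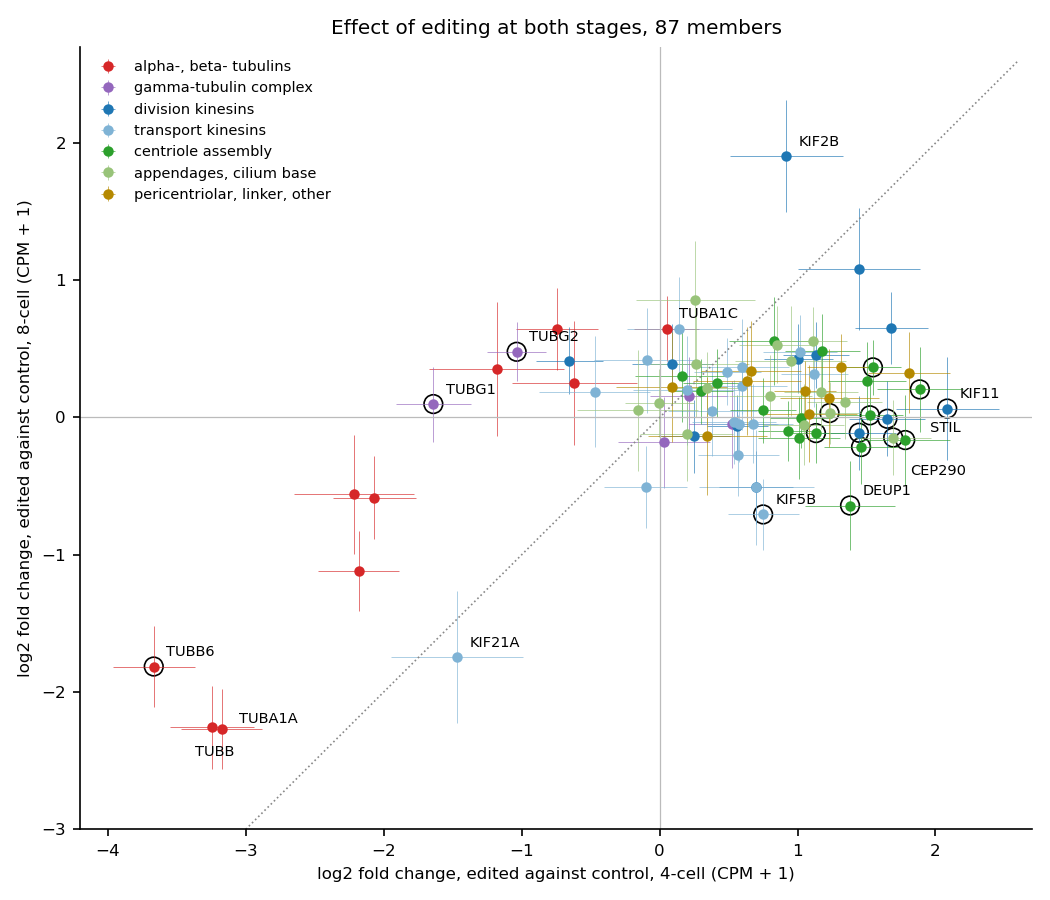
Log2 fold change (CPM + 1) between edited and control embryos at the 4-cell stage (horizontal) and the 8-cell stage (vertical) for the 87 members, coloured by class, with bars of 1 SE and a dotted line of equal change. Circles mark the 16 members whose effect differed between stages; STIL lies at 1.78 and -0.16, and TUBG2 at -1.04 and 0.48.

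Stage was compared within controls, in a comparison that shares the 4-cell control libraries with the 4-cell editing comparison. In the older controls 6 members were higher and 5 lower. The background was 9.02% of all genes, 2.75% higher and 6.27% lower. DEUP1 stood at 33.2 and 44.3 CPM in 8-cell and at 11.3 and 8.06 CPM in 4-cell controls (SE 0.32 on the log2 scale, adjusted p 0.00857). The other 5 were CEP57L1, CEP350, CEP192, KIF18A and KIF3C, with adjusted p from 0.0140 to 0.0499, and CEP192 among them had a log2 fold change of 1.05 and KIF18A one of 0.89. The 5 lower were TUBB6 (71.0 ± 31.9 CPM at the 8-cell against 201 ± 7.18 CPM at the 4-cell stage, adjusted p 0.0121), TUBB (log2 fold change -1.34), TUBA1A (-1.21), TUBB2A (-1.18) and TUBG1 (-0.90). These counts moved with single libraries. They were 1 and 0 without the first 4-cell control library and again without the first 8-cell control library, 22 and 4 without the second 4-cell control library and 7 and 7 without the second 8-cell one. DEUP1 was called in 12 of the 13 alternatives other than the covariate fit, and edgeR called it alone of the 11, with 33 members at an unadjusted p under 0.05.

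The comparison of stages in edited embryos shares no library with that in controls. It does share the 4-cell edited libraries with the 4-cell editing comparison. In 8-cell edited embryos 2 members had a higher and 2 a lower level, against 5.18% of all genes, 1.45% higher and 3.73% lower. TUBG2 had 203 and 209 CPM in 8-cell and 87.7 and 107 CPM in 4-cell edited libraries (log2 fold change 1.08, SE 0.21, adjusted p 0.0114). TUBA1C was at 1510.0 and 1274 CPM against 903 and 655 CPM (log2 fold change 0.85, adjusted p 0.0495). KIF5B was at 57.6 and 60.9 CPM against 134 and 136 CPM (log2 fold change -1.17, SE 0.26, adjusted p 0.0188), and CEP290 at 82.3 and 71.5 against 133 and 178 CPM (adjusted p 0.0457). Of the tubulins low in 4-cell edited embryos, TUBB had 28.7 ± 5.72 CPM there and 23.0 ± 9.58 CPM in 8-cell edited embryos, and TUBB6 14.9 ± 1.99 and 18.4 ± 0.00818 CPM, and neither passed (adjusted p 0.541 and 0.613). Leaving out any of the 4 edited libraries brought both counts to 0.

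The order of the 4 group means was different for alpha- and beta-tubulins and for centrosomal genes. The 4-cell control mean was the highest of the 4 for 8 of 10 alpha- and beta-tubulins and the lowest for 37 of 41 centrosomal genes, including all 17 centriole assembly genes. Gamma-tubulin and its complex, not counted among the 41, went both ways. For these 5 genes the 4-cell control mean was the highest for 1, TUBG1, and the lowest for 3. The 4-cell control mean was the highest for 38.0% and the lowest for 39.5% of all genes tested. The 4-cell edited mean was the highest for 25 of 41 centrosomal genes and 15 of 31 kinesins, against 26.5% of all genes.

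Other genes of the microtubule system were taken from fixed lists. The lists were chosen with earlier results known, and their counts are a description. Of 41 further centrosome genes, 15 (36.6%) were higher and 1 (2.44%) was lower in 4-cell edited embryos (median log2 fold change 0.61). The shares of all genes were 18.9% and 25.8%. SCLT1, a distal appendage protein, stood at 220 ± 11.1 CPM against 73.5 ± 15.8 CPM in controls, and CCP110, which caps centrioles, at 162 ± 2.35 against 64.2 ± 4.91 CPM. MZT2B, a small protein of the gamma-tubulin ring, was lower (0.974 ± 0.0540 against 6.83 ± 4.06 CPM). In 8-cell embryos 3 of the 41 (7.32%) were lower, a share below the 14.5% of all genes. Among them were PCM1, the scaffold of centriolar satellites, at 20.4 ± 3.16 against 52.9 ± 13.2 CPM, and CETN3, a centrin, at 313 ± 224 against 747 ± 121 CPM. Of 32 factors of microtubule dynamics and the spindle, 12 (37.5%) were higher and 2 (6.25%) lower in 4-cell edited embryos, against 18.9% and 25.8% of all genes. The microtubule-severing enzyme SPAST was at 121 ± 6.96 against 42.5 ± 0.871 CPM and the spindle protein HMMR at 491 ± 168 against 189 ± 76.8 CPM. STMN1, which binds free tubulin, was lower at both stages (406 ± 33.0 against 1421 ± 177 CPM, then 323 ± 71.9 against 781 ± 1.13 CPM), as was TACC1. MAP9 was lower at the 8-cell stage, where 3 of the 32 (9.38%) were lower, against 14.5% of all genes.

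Of 33 tubulin folding and modification genes, 14 (42.4%) were lower and 1 higher in 4-cell edited embryos, and 7 (21.2%) were lower in 8-cell ones, against 25.8% and 14.5% of all genes lower. Their median log2 fold changes were -0.53 and -0.32. The subunits of the CCT chaperonin that folds tubulin were among them: CCT6A had 57.9 ± 15.2 against 278 ± 36.5 CPM in 4-cell embryos and 18.4 ± 1.05 against 146 ± 13.8 CPM at the 8-cell stage. CCT7 was lower at the 4-cell stage (154 ± 4.97 against 486 ± 27.2 CPM) and TCP1 at the 8-cell stage (107 ± 5.29 against 296 ± 7.54 CPM). TBCEL was higher at the 4-cell stage (37.4 ± 8.64 against 14.8 ± 5.63 CPM). TTC5, the factor that recognises tubulin as it is translated and marks its mRNA for decay, was picked out after its values were seen. It stood at 118 ± 12.6 CPM in 4-cell edited embryos against 143 ± 55.5 CPM in controls (adjusted p 0.507).

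For dynein and dynactin, the motor complex that walks opposite to most kinesins, the shares were near those of all genes. Of 26 genes, 5 (19.2%) were higher and 8 (30.8%) lower in 4-cell edited embryos, against 18.9% and 25.8%, and 5 (19.2%) were lower in 8-cell ones, against 14.5%. In 4-cell embryos DCTN3 had 26.8 ± 0.406 against 249 ± 46.6 CPM and DCTN2 21.4 ± 10.1 against 159 ± 20.7 CPM, whereas DYNC1I2 was at 1844 ± 48.8 against 860 ± 160.4 CPM and DYNLL1 at 520 ± 122 against 271 ± 67.4 CPM. DCTN2 and DYNLRB1 had the smallest p of the 5 genes lower at the 8-cell stage. Of 8 other kinesin-related genes, 1 (12.5%) was higher and 1 (12.5%) lower at the 4-cell stage, against 18.9% and 25.8% of all genes. CENPE, the kinetochore kinesin, was higher (a mean of 400 against 135 CPM) and the kinesin light chain KLC1 lower (7.16 ± 1.36 against 36.1 ± 10.1 CPM). At the 8-cell stage 0 passed. DEUP1 is part of the multiciliation program, and of 7 other genes of that program RFX3 and CDC20B (28.6%) were higher and E2F4 (14.3%) was lower in 4-cell edited embryos, against 18.9% and 25.8% of all genes. In 8-cell embryos 0 were called.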

How the data were processed

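RNA of pooled embryos was amplified as full-length cDNA and made into Nextera XT libraries, per the labels' protocols. The deposited table is named for raw read counts, but its values are CPM: they are not whole, and the columns sum to about 1000000. The submitters' processing notes name Trim Galore 0.6.7, HISAT2 2.2.1 and featureCounts 2.0.1. The genome build, the annotation, the strand setting and any filter are not given in the sources used here, so no coordinates are printed and overlapping genes cannot be told apart. Of 12 columns, 8 carry library names of the samples and 4 match none and were not used. In these 8 columns 100% of the positive deposited CPM are whole multiples, within 0.05 reads, of a step per library, which gave whole reads.

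Log2(CPM + 1) values of all 8 libraries were fitted with limma 3.58.1 under R 4.3.3, using its trend option and 1 mean per group, for genes averaging at least 1 CPM. Benjamini-Hochberg adjustment ran over all of them, with 0.05 as the threshold. Alternatives were pseudocounts of 0.5 and 5 CPM, no filter, TMM and median-of-ratios scaling, edgeR 4.0.16 and DESeq2 1.42.0 on the recovered reads, only the libraries compared, the replicate number as a block, a marker covariate, and each library left out. Libraries of a group correlated at 0.971 to 0.978 and differed by more than sampling noise (chi-square per degree of freedom 52.8 to 172). Counts cover counting error only, since amplified reads without molecular identifiers are not independent molecules.

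Members and lists were chosen with earlier results of these data known. Named were DEUP1, PCNT, PLK4, STIL, SASS6, all tubulins and the gamma-tubulin complex, up to 3 called members per class, direction and comparison by smallest p, and up to 2 genes per further list. Called genes beyond these are named to complete a count. Values of 1 member are not reported here.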

Additional observations from a re-analysis of the deposited data

Results flagged for a closer look

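For 16 members the effect of editing depended on stage, by limma's test of the difference at an adjusted p under 0.05. Each value is the 8-cell minus the 4-cell log2 fold change. More positive at the 8-cell stage were TUBG2 (1.52), TUBG1 (1.74) and TUBB6 (1.85). More negative were the centrosomal genes CEP290 (-1.84), CEP192 (-1.68), CEP350 (-1.51), DEUP1 (-2.02), STIL (-1.95), CEP57L1 (-1.18), CEP295 (-1.25), CEP135 (-1.68) and CEP83 (-1.20), and the kinesins KIF20B (-1.66), KIF15 (-1.56), KIF5B (-1.46) and KIF11 (-2.02). The adjusted p lay between 0.0230 and 0.0481. The count of 16 was between 0 and 29 with a library left out, and 0 with edgeR.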

How the results depend on the processing

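Counts of members are given as higher and lower in edited embryos or at the 8-cell stage. With the marker covariate, limma called 0 and 0 at the 4-cell stage, 0 and 0 at the 8-cell stage, 0 and 0 between stages in controls and 0 and 0 in edited embryos, with 5, 1, 10 and 20 members at an unadjusted p under 0.05, and 1 member for the difference between stages. It turned KIF21A to 0.69 (4-cell) and 0.0701 (8-cell) and TUBA1B to 0.29 (8-cell); no other alternative turned a called direction of a named member. edgeR called 0 and 3 at the 8-cell stage, 0 for the difference between stages, 1 and 0 between stages in controls and 1 and 1 in edited embryos. DESeq2 called 2 higher at the 8-cell stage and 7 lower between stages in edited embryos. With only the libraries compared, 3 were higher at the 8-cell stage, 1 and 0 changed between stages in controls and 9 were lower in edited embryos. Without a filter, limma called 3 lower at the 8-cell stage, 0 for the difference, 0 and 0 between stages in controls and 0 and 0 in edited embryos (33, 31 and 23 members at an unadjusted p under 0.05). Median-of-ratios scaling called 10 for the difference and 1 and 1 between stages in edited embryos, as did TMM scaling there with 1 and 1, and a pseudocount of 5 CPM called 1 higher there. Leaving out libraries gave 28 to 40 higher and 8 to 10 lower at the 4-cell stage, 1 to 2 higher and 3 to 5 lower at the 8-cell stage, 0 to 29 for the difference, 1 to 22 higher and 0 to 7 lower between stages in controls and 0 to 0 for both in edited embryos.

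Same-numbered libraries deviated together at correlations of 0.11, -0.09, -0.30 and 0.02 for the 2 editing comparisons and the stage comparisons in controls and edited embryos, and no label ties a number to a shared batch or day. With the replicate block 36 and 9 members passed at the 4-cell stage, 1 and 5 at the 8-cell stage, 13 differed between stages, 5 and 4 changed between stages in controls and 1 and 2 in edited embryos. Depth limits genes of a few CPM or less, such as KIF2B and TUBA4A.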

Other observations

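The shares of reads on the beta-tubulin genes also differed between the groups. A larger share of TUBB3 does not mean a higher level in 4-cell embryos, where its mean was 53.4 CPM in controls and 31.5 CPM in edited ones. TUBB3 took 7.90% and 7.97% of the reads on the beta-tubulin members in 4-cell controls, 28.0% and 29.2% in 4-cell edited, 12.7% and 14.8% in 8-cell controls and 44.1% and 39.5% in 8-cell edited libraries. TUBB6 took 30.7% and 29.1% in 4-cell controls, 23.4% and 26.2% in 8-cell controls and between 11.9% and 15.4% in the 4 edited libraries. These shares were not tested, and they depend on how reads common to near-identical genes were counted.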
